A study of Homo sapiens with 24 samples.

Results

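The coronin family was followed in SK-MES1 cells, an established line from a human squamous lung carcinoma, during a time course with transforming growth factor β1 (TGFβ1). Its 7 protein-coding genes, CORO1A, CORO1B, CORO1C, CORO2A, CORO2B, CORO6 and CORO7, were taken as a fixed family list from 34834 genes with at least 1 transcript in the deposited tables, and each gene's reads are the sum over its transcripts. All 7 passed the filter on low counts and were among the 17453 genes tested. The experiment held 24 RNA-Seq libraries in 8 groups of 3 biological replicates. All dishes were serum-starved for 3 h. Cells of the control arm were then left untreated and cells of the other arm received 2 ng/ml TGFβ1, and RNA was taken at 0, 8, 24 and 48 h in each arm, so the 0 h groups are the starting point of the arms. All libraries come from 1 cell line.

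Coronins are actin-binding proteins built on a WD40-repeat propeller. Class I coronins (CORO1A, CORO1B, CORO1C, CORO6) bind actin filaments and the Arp2/3 complex, which starts filament branches, and CORO1B also brings the phosphatase slingshot to cofilin, the protein that severs and recycles filaments. Class II coronins (CORO2A, CORO2B) are linked to stress fibres and focal adhesions, and CORO7 carries a pair of propellers and acts at the Golgi. TGFβ1 signals through receptor kinases and SMAD transcription factors and is a classical inducer of epithelial-to-mesenchymal transition, in which the actin cytoskeleton is rebuilt.

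The libraries held 46613589 to 77964234 estimated counts. Targets known from TGFβ signalling checked the labels: the log2 difference between the arms (TGFβ1 arm minus untreated) at 8 h was 1.98 for SMAD7, 3.31 for PMEPA1 and 2.26 for SKIL, and at 0 h it was between 0.03 and 0.10 for these genes. At 0 h 0 genes passed the threshold of an adjusted p under 0.01 in limma voom or in edgeR and 8 in DESeq2, with 800 genes at an unadjusted p under 0.05 in limma voom. The epithelial markers EPCAM (21.6 to 37.0 TPM over all libraries, a level scaled per transcript length and library size) and TP63 (7.69 to 37.5 TPM) were present, while the squamous keratins KRT5, KRT6A and KRT14 stayed at or under 0.102 TPM and KRT17 ran from 0.29 to 71.4 TPM. The sum of the 8 squamous and epithelial markers was 36.8 to 44.3 TPM at 0 h in both arms, and at 48 h 87.8 to 89.6 TPM in untreated cells and 124 to 132 TPM in the TGFβ1 arm; its part in the results was not tested. The deposited library names carry 4 codes that split the libraries by arm and into the times 0 and 8 h against 24 and 48 h, so at each time point code and treatment cannot be told apart, whereas 0 to 8 h and 24 to 48 h within an arm share a code. The libraries numbered 2 at 0 and 24 h stood apart within their own groups, where each had the largest deviation, in both arms. The median absolute log2 deviation of a gene from the other pair of its group was 0.154 to 0.237 in these 4 libraries and 0.0521 to 0.19 in the other 20. These ranges overlap, since TGFβ1 replicate 1 of 0 h had 0.19 and untreated replicate 2 had 0.154 at 0 h and 0.159 at 24 h.

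CORO1B and CORO1C, the widely expressed class I coronins, made up nearly all coronin RNA. On the TPM scale, which is per transcript length and allows levels of different genes to be set side by side, CORO1B lay between 147 and 314 and CORO1C between 84.3 and 141 over the 24 libraries, and together they held 90.5 to 95.9% of the summed TPM of the family. CORO7 followed with 6.64 to 15.3 TPM. CORO2A (1.18 to 2.93 TPM), CORO1A (0.768 to 2.71 TPM) and CORO6 (0.337 to 1.43 TPM) were low throughout. CORO2B spanned the widest range for its level, 1.52 to 19.0 TPM. In untreated cells at 0 h the mean levels ran in the order CORO1B, CORO1C, CORO7, CORO1A, CORO2B, CORO2A, CORO6, and the libraries of CORO1A and CORO2B overlapped while the other neighbours were separate. In the TGFβ1 arm at 48 h CORO2B (17.3 TPM ± 2.08, SD, n = 3) had moved to the place after CORO1C, with libraries that overlapped those of CORO7 (13.7 TPM ± 1.44, SD, n = 3). In untreated cells at 48 h it stood in the fifth place, with 1.78 TPM ± 0.254 (SD, n = 3), and overlapped CORO1A.

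**Figure D1:**
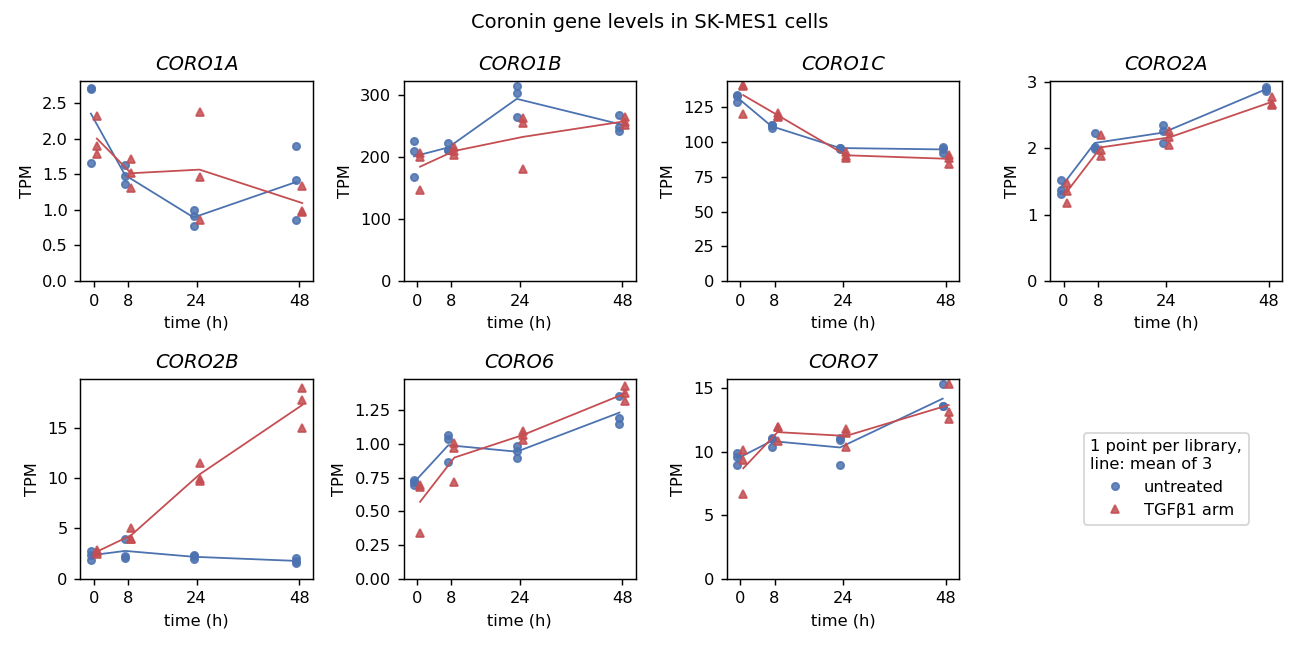
Gene levels in TPM (vertical axis, starting at 0, own scale per gene) against time in hours for the 7 coronin genes; each point is 1 library, blue circles are untreated cells, red triangles the TGFβ1 arm, and lines join the means of 3 libraries. CORO2B reached 15.0 to 19.0 TPM in the TGFβ1 arm at 48 h and stayed at or under 3.92 TPM in untreated cells, while CORO2A and CORO1C moved in the same direction over time in both arms.

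Between the arms, CORO2B was the coronin that differed at every time after 0 h. At 8 h 2 of the 7 members passed the threshold, CORO2B and CORO1C, both higher in the TGFβ1 arm, where 16.4% of all tested genes passed in either direction, 9.12% higher and 7.26% lower. At 24 h 1 of 7 passed, against 29.3% of all genes, and at 48 h 1 of 7, against 32.6%; in both cases it was CORO2B. A joint F-test over the 8, 24 and 48 h differences called CORO2B and CORO1C, 2 of 7, against 42.5% of all genes. The median log2 difference of the 7 members at 8, 24 and 48 h was 0.15, 0.15 and 0.08, where the medians over all genes were -0.016, -0.015 and -0.013. In bulk RNA, a change in the number of cells of a kind and a change in RNA per cell cannot be told apart. Within the arms, from 0 to 8 h 2 of 7 members passed in untreated cells (25.9% of all genes) and 4 of 7 in the TGFβ1 arm (33.8%), and from 24 to 48 h 2 of 7 passed in each arm (28.4% and 25.8%). These counts used TMM scaling. Scaling to a set of 4 housekeeping genes as reference genes moved the median log2 difference of all genes to 0.429 at 24 h and 0.339 at 48 h. The share of calls that were higher rose from 52.7% to 94.0% at 24 h and from 49.5% to 87.8% at 48 h, and 6 coronins were called at 24 h, where 56.4% of all genes were, and 5 at 48 h, where 47.6% were. Minus the median of all genes, which takes a change of scaling out by construction, the differences of CORO2B at these times were 2.30 and 3.33.

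**Figure D2:**
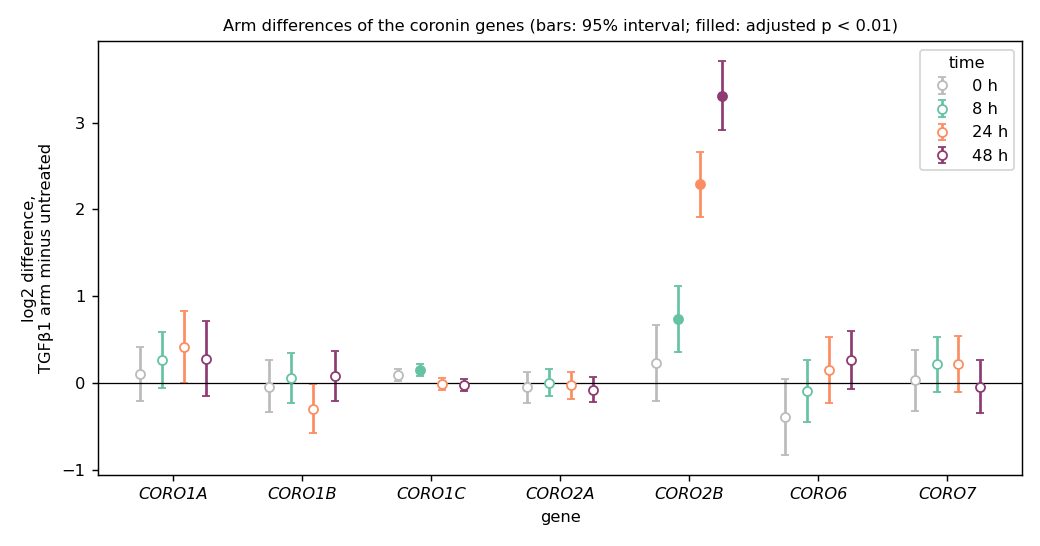
Log2 difference (TGFβ1 arm minus untreated, vertical axis) of each coronin gene (horizontal axis) at 0, 8, 24 and 48 h, in colours, with the 95% interval of the limma voom fit as bars; filled points have an adjusted p under 0.01. The filled points are CORO2B at 8, 24 and 48 h (0.74, 2.29 and 3.31) and CORO1C at 8 h (0.15).

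CORO2B, a class II coronin described in neurons and podocytes, lies at chr15:68578993-68727806 on the plus strand of GRCh38. In untreated cells its TPM was 1.89, 2.35 and 2.76 at 0 h, 2.11, 3.92 and 2.28 at 8 h, 1.93, 2.33 and 2.30 at 24 h, and 1.78, 2.03 and 1.52 at 48 h. In the TGFβ1 arm it was 2.48, 2.89 and 2.71 at 0 h, 5.08, 3.98 and 3.91 at 8 h, 9.90, 9.71 and 11.5 at 24 h, and 15.0, 19.0 and 17.8 at 48 h. The arms overlapped at 0 h, as they did for all 7 members (6.99% of all genes were separate there), and, through untreated replicate 2 alone, at 8 h, and all TGFβ1 libraries lay above all untreated libraries at 24 and 48 h. Such a complete split in TPM was seen for 40.3% of all genes at 24 h and 55.1% at 48 h, in either direction. Estimated counts ran from 182 to 509 in untreated cells and at 0 h in the TGFβ1 arm they were 270 to 326, against 1561 to 1899 in the TGFβ1 arm at 48 h.

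The log2 difference of CORO2B between the arms was 0.23 at 0 h (SE 0.21, adjusted p = 1), 0.74 at 8 h (SE 0.18, adjusted p = 0.0041), 2.29 at 24 h (SE 0.18, adjusted p = 1.3e-09) and 3.31 at 48 h (SE 0.19, adjusted p = 5.1e-12). In TPM the level at 48 h was 9.71 times that of untreated cells. Within the TGFβ1 arm the 48 h level was 6.40 times the 0 h level, and within the untreated arm it was 0.762 times. The library codes also change between 0 and 48 h. By size of the log2 difference CORO2B ranked 750 among 17453 genes at 8 h, 180 at 24 h and 90 at 48 h. An exact permutation test of the mean difference over 8, 24 and 48 h, with labels exchanged within time points, gave a two-sided p = 0.0005, where the smallest possible value was 0.00025. CORO2B is among the genes that the study picked from these same libraries, so its difference is not independent evidence of its direction. A list of 6 fibroblast markers summed to 203 to 217 TPM in untreated cells at 48 h and 2100 to 2400 TPM in the TGFβ1 arm, almost all of it COL1A1, with COL1A2 at or under 0.221 TPM, and its part in the CORO2B result was not tested.

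The growth of the difference was tested directly. From 8 to 24 h the arm difference of CORO2B grew by 1.55 (SE 0.26, adjusted p = 0.00025), a change that 6.69% of all genes passed in either direction, and from 24 to 48 h by a further 1.03 (SE 0.26, adjusted p = 0.0093), where 9.11% passed. The change from 24 to 48 h was within library codes, but its call was kept in only 8 of 24 fits that left out 1 library and in 7 of 12 other settings, with adjusted p up to 0.039. From 0 to 8 h, also within codes, it was 0.51 (SE 0.28, 95% interval -0.07 to 1.09, adjusted p = 0.30) and did not pass, where 7.88% of genes did. Inside the TGFβ1 arm alone CORO2B rose by 0.66 from 0 to 8 h (SE 0.19, adjusted p = 0.0063) and by 0.67 from 24 to 48 h (SE 0.14, adjusted p = 0.00057), and the first of these was called in 19 of 24 fits without 1 library. The untreated arm gave 0.15 (adjusted p = 0.60) and -0.36 (adjusted p = 0.22). The 24 and 48 h arm differences were called in all 24 fits without 1 library and in all 12 other settings. The 8 h call was lost when untreated replicate 1 (0.58, adjusted p = 0.039), untreated replicate 3 (0.62, adjusted p = 0.035) or TGFβ1 replicate 1 (0.62, adjusted p = 0.029) of 8 h was left out, and without untreated replicate 2 the difference was 1.01 (adjusted p = 0.00013).

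Nearly all CORO2B reads were assigned to a pair of protein-coding transcripts that start at different first exons. CORO2B-202 (ENST00000540068) starts at chr15:68616539 and held 78.5 to 94.4% of the gene's TPM over the group means. CORO2B-201 (ENST00000261861), the transcript that GENCODE marks as canonical, starts 37546 bases upstream at chr15:68578993 and held 5.6 to 20.7%. Each has 12 exons, of which 10 are the same, and the coding part of CORO2B-201 (1440 bases) is 15 bases longer. In the TGFβ1 arm the mean TPM of CORO2B-202 (± SD, n = 3) was 2.54 ± 0.192, 3.30 ± 0.443, 9.06 ± 0.361 and 13.8 ± 0.833 at 0, 8, 24 and 48 h, while the untreated groups had means of 1.57 to 2.25 TPM. The 3 TGFβ1 libraries of CORO2B-201 were 2.27, 0.431 and 0.252 TPM at 8 h, 0.610, 0.462 and 2.82 at 24 h, and 1.07, 4.24 and 4.76 at 48 h, against 0.0886 to 0.938 TPM over all untreated libraries. The split between the transcripts is an estimate of kallisto for reads that fall in shared exons, and the share of CORO2B-201 differed widely between replicates (20.7% ± 21.0, SD, n = 3, at 8 h in the TGFβ1 arm), so no change in transcript use was tested.

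**Figure D3:**
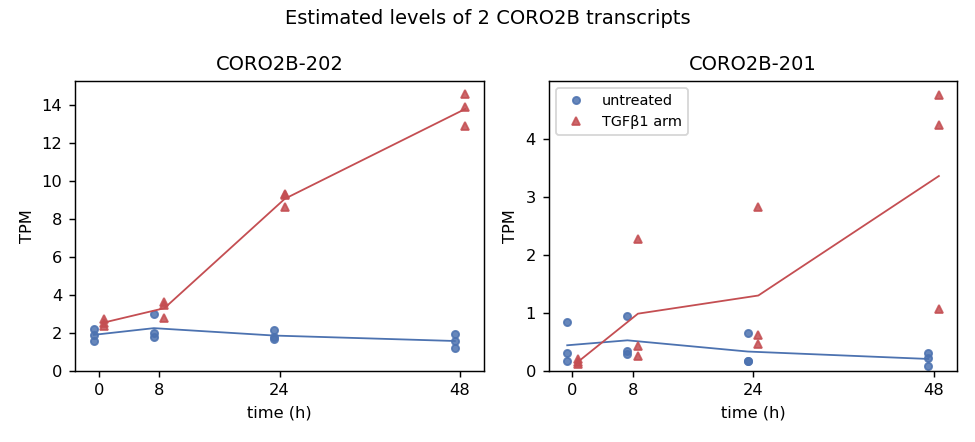
Estimated TPM of CORO2B-202 (left) and CORO2B-201 (right, own scale) against time in hours; points are single libraries, lines join group means, blue circles are untreated cells and red triangles the TGFβ1 arm. CORO2B-202 reached 12.9 to 14.6 TPM at 48 h in the TGFβ1 arm; CORO2B-201 ranged from 1.07 to 4.76 TPM there.

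Since the transcript with most of the reads starts downstream of the annotated main start, the 250 bases before each start are shown (RefSeq, GRCh38.p14, plus strand). CORO2B-202 lies behind chr15:68616289-68616538 and CORO2B-201 behind chr15:68578743-68578992. Capitals mark the only match to a GC box, CCGCCC, the reverse complement of GGGCGG.
CORO2B-202: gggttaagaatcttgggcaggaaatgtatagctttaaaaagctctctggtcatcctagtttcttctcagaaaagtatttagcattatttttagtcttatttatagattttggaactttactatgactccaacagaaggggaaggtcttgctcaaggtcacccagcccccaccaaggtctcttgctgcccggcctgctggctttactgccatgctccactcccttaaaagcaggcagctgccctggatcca
CORO2B-201: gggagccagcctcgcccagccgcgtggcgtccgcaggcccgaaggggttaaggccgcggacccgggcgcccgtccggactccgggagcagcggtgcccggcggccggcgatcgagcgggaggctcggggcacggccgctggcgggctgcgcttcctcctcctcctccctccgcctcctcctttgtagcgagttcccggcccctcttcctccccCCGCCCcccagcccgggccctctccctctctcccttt
The windows differ in base composition: 45.6% G or C before CORO2B-202 and 76.8% before CORO2B-201, with a median of 58.0% over 34943 promoters. The GC box stands 37 bases before the start of CORO2B-201, and 42.5% of all promoters hold at least 1 on either strand. The SMAD core CAGAC, the SMAD palindrome GTCTAGAC and the AP-1 site TGACTCA, each searched on both strands, had 0 matches in either window, where 38.0%, 0.183% and 4.22% of all promoters hold them. A missing match says only that these letters are not in these windows.

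CORO2A (chr9:98120975-98192637, minus strand), the other class II coronin and a component of the NCoR corepressor complex, showed no arm difference that passed the test and rose with time in both arms. Its TPM in untreated cells was 1.37, 1.32 and 1.53 at 0 h and 2.86, 2.93 and 2.89 at 48 h, and in the TGFβ1 arm 1.18, 1.48 and 1.36 at 0 h and 2.78, 2.66 and 2.67 at 48 h. The ratio of means, 48 h over 0 h, was 2.05 in untreated cells and 2.01 in the TGFβ1 arm. The library codes also change between these times. At 48 h all TGFβ1 libraries of CORO2A lay below all untreated ones, where 55.1% of all genes were split in either direction. From 0 to 8 h it rose by 0.51 on the log2 scale in untreated cells (SE 0.080, adjusted p = 3.3e-05) and by 0.57 in the TGFβ1 arm (SE 0.081, adjusted p = 7.4e-06). From 24 to 48 h it rose by 0.31 (adjusted p = 0.0014) and 0.26 (adjusted p = 0.0096). The last of these was called in only 9 of 24 fits without 1 library, the first lost its call under reference-gene scaling (0.35, adjusted p = 0.012), and the rise of 24 to 48 h in untreated cells was lost without untreated replicate 2 of 24 h (0.25, adjusted p = 0.011). The arm differences were 0.00, -0.02 and -0.08 at 8, 24 and 48 h, with 95% intervals of -0.15 to 0.16, -0.18 to 0.13 and -0.22 to 0.07; under the reference-gene scaling that raised the median of all genes they were 0.42 at 24 h and 0.28 at 48 h. The CORO2B to CORO2A ratio in TPM was 0.615 ± 0.0842 (SD, n = 3) in untreated cells at 48 h and 6.40 ± 0.915 in the TGFβ1 arm, after 1.65 ± 0.236 and 2.01 ± 0.0785 at 0 h.

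CORO1B (chr11:67435510-67443821, minus strand), the class I coronin of the leading edge, did not pass the main test at any time, and its 24 h call depended on how the number 2 libraries were treated. Its untreated TPM was 226, 168 and 209 at 0 h, 222, 212 and 212 at 8 h, 303, 264 and 314 at 24 h and 268, 249 and 242 at 48 h. In the TGFβ1 arm it was 206, 147 and 200, then 210, 216 and 203, then 262, 180 and 255, and 257, 264 and 252. Replicate 2 was the lowest at 0 and 24 h in both arms, with 0.669 to 0.834 times the mean of the other pair, and these are the 4 libraries that stood apart over all genes. The 24 h difference was -0.30 (SE 0.14, adjusted p = 0.092), with all TGFβ1 libraries below all untreated ones in TPM. A split of this kind, in either direction, was seen for 40.3% of all genes at 24 h. Without the number 2 libraries of 0 and 24 h it was -0.20 with adjusted p = 0.0034, past the threshold. With a block for the replicate number within each time point it was -0.29 with adjusted p = 0.00086, and with 1 block per replicate number -0.30 with adjusted p = 0.037. Under reference-gene scaling it was 0.15. The untreated arm at 24 h was the highest group, and the change from 24 to 48 h in that arm was -0.29 (adjusted p = 0.098), or -0.38 (adjusted p = 1.4e-06) without the same 4 libraries. CORO1B shares its 3′ end with PTPRCAP on the same strand, whose own level was at most 0.766 TPM.

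CORO1C (chr12:108645109-108731526, minus strand), the other abundant class I coronin, fell from 0 to 8 h in both arms. Its level at 48 h was below that at 0 h, a span over which the library codes also change. Its TPM was 133, 134 and 129 at 0 h and 96.6, 95.1 and 92.3 at 48 h in untreated cells, and 120, 140 and 141 at 0 h and 84.3, 91.0 and 88.4 at 48 h in the TGFβ1 arm. From 0 to 8 h it fell by 0.25 on the log2 scale in untreated cells (SE 0.033, adjusted p = 4.2e-06) and by 0.19 in the TGFβ1 arm (SE 0.033, adjusted p = 7.2e-05), the latter without a call on log2(TPM + 1) (-0.15, adjusted p = 0.014) and under reference-gene scaling (-0.27, adjusted p = 0.018). From 24 to 48 h, the other step within library codes, neither change passed the threshold. It was -0.09 in untreated cells (adjusted p = 0.035) and -0.1 in the TGFβ1 arm (adjusted p = 0.032). At 8 h the TGFβ1 libraries had 118, 119 and 121 TPM and the untreated libraries 110, 112 and 112, with no overlap, as for 47.4% of all genes. The arm difference of 0.15 at 8 h (SE 0.033, adjusted p = 0.0018) passed the threshold, after 0.09 at 0 h (SE 0.033, unadjusted p = 0.014, adjusted p = 1), and the change from 0 to 8 h was 0.06 (95% interval -0.04 to 0.16, adjusted p = 0.52). The 8 h call was lost with library totals (0.07, adjusted p = 0.17), with reference-gene scaling (0.20, adjusted p = 0.12) and on log2(TPM + 1) (0.10, adjusted p = 0.16). At 24 and 48 h the differences were -0.01 and -0.02 in counts, with 95% intervals of -0.08 to 0.06 and -0.09 to 0.05. In TPM all TGFβ1 libraries were below all untreated ones at both times, with group means of 90.5 against 95.6 at 24 h and 87.9 against 94.7 at 48 h. Such a split, in either direction, was seen for 40.3% of all genes at 24 h and 55.1% at 48 h. The F-test call (mean 0.04, adjusted p = 0.0054) changed sign of its mean to -0.05 with library totals and -0.03 on log2(TPM + 1), and it was lost without any of the 6 libraries of 8 h (adjusted p 0.012 to 0.024).

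CORO1A (chr16:30182827-30189076, plus strand), the coronin of blood cells, was low, with 36 to 122 estimated counts per library. Its TPM was 1.65, 2.69 and 2.71 in untreated cells and 1.79, 1.89 and 2.32 in the TGFβ1 arm at 0 h, and 1.42, 1.90 and 0.853 against 0.983, 0.963 and 1.34 at 48 h. The arms overlapped at every time point. The arm differences were 0.26, 0.41 and 0.28 at 8, 24 and 48 h with adjusted p of 0.26, 0.11 and 0.31, and the 48 h value was -0.17 on log2(TPM + 1) and -0.24 with length-scaled counts. The change from 0 to 8 h was -0.53 in untreated cells (SE 0.16, adjusted p = 0.011) and -0.37 in the TGFβ1 arm (adjusted p = 0.053); the former passed with the number 2 libraries of 0 and 24 h left out (-0.62, adjusted p = 0.0044), under reference-gene scaling (-0.70, adjusted p = 0.00073), with a replicate block (-0.54, adjusted p = 0.0098) and with a block per time point (-0.54, adjusted p = 0.0097). Of 7 leukocyte markers 5 were under 1 TPM in every library, with CD3E listed at 0, and PTPRC ranged from 1.26 to 2.10 TPM. The widely expressed CD68 went the other way, with 7.64 to 40.2 TPM. The sum of the list was 9.95 to 42.7 TPM over the libraries with CD68 and 2.06 to 3.82 TPM without it. The part of these markers in the CORO1A result was not tested.

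CORO6 (chr17:29614756-29622912, minus strand), a little-studied class I coronin, had the fewest reads, with 29 to 108 estimated counts per library. Its TPM was 0.695, 0.719 and 0.734 at 0 h and 1.19, 1.15 and 1.36 at 48 h in untreated cells, and was 0.682, 0.337 and 0.695 at 0 h and 1.32, 1.38 and 1.43 at 48 h in the TGFβ1 arm. At 24 h all TGFβ1 libraries of CORO6 lay above all untreated ones, where 40.3% of all genes were split in either direction. None of its arm differences passed (-0.39, -0.09, 0.15 and 0.27 at 0, 8, 24 and 48 h, adjusted p of 0.20 or more), and its changes over time also missed the threshold in the main test. The change from 0 to 8 h in the TGFβ1 arm, 0.58 (adjusted p = 0.024), was called on log2(TPM + 1) (0.28, adjusted p = 0.0077) and log2(TPM + 0.1) (0.61, adjusted p = 0.0095). The change from 24 to 48 h in that arm, 0.55 (adjusted p = 0.016), was called with a block per time point (0.55, adjusted p = 0.0097) and under reference-gene scaling (0.97, adjusted p = 1.8e-05), as was that of untreated cells under the latter (0.95, adjusted p = 1.9e-05). Only 7.31 to 26.1% of its TPM, over group means, came from transcripts annotated as protein coding, and the canonical transcript did not exceed 0.0724 TPM in any library. The rest was assigned to retained-intron, nonsense-mediated decay and other forms with no defined coding sequence. CORO6 shares only a very short stretch, chr17:29614756-29614761, with the end of ANKRD13B on the opposite strand. The strand of the library kit is not given in the sources used here.

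CORO7 (chr16:4354542-4425705, minus strand), the Golgi coronin with tandem propellers, had the level next to the abundant pair in most groups. Untreated cells had 9.87, 8.91 and 9.58 TPM at 0 h and 15.3, 13.6 and 13.6 at 48 h, and the TGFβ1 arm 9.33, 6.64 and 10.1 at 0 h and 15.3, 13.1 and 12.6 at 48 h. The arms overlapped at every time point, with differences of 0.22, 0.22 and -0.04 at 8, 24 and 48 h (adjusted p = 0.35, 0.29 and 0.85). It rose by 0.57 from 24 to 48 h in untreated cells (SE 0.15, adjusted p = 0.0044) and by 0.56 from 0 to 8 h in the TGFβ1 arm (SE 0.16, adjusted p = 0.0063). The corresponding changes in the opposite arms were 0.31 (adjusted p = 0.12) and 0.37 (adjusted p = 0.075), and the changes of the arm difference over these steps were not called. The first rise was lost without untreated replicate 2 of 24 h (0.43, adjusted p = 0.034), replicate 1 of 48 h (0.50, adjusted p = 0.027) or replicate 2 of 48 h (0.59, adjusted p = 0.011). The second was lost without TGFβ1 replicate 2 of 0 h (0.35, adjusted p = 0.06) or any TGFβ1 replicate of 8 h (adjusted p 0.013 to 0.024). On the opposite strand VASN (chr16:4371848-4383538) lies inside CORO7, with 0.266 to 2.92 TPM, and its part in the CORO7 reads was not tested. CORO7 overlaps the readthrough gene CORO7-PAM16 and the gene PAM16 on the same strand. CORO7-PAM16 was at or under 0.209 TPM, and adding its counts left every CORO7 call as it was. PAM16, a subunit of the mitochondrial import motor, had 11.7 to 42.0 TPM. Its arm differences were -0.35 at 0 h, -0.79 at 8 h (adjusted p = 0.082), -0.03 at 24 h (adjusted p = 0.96) and -1.09 at 48 h (adjusted p = 0.023). None of them passed the threshold.

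Over all 24 libraries the genes whose voom log2 values of scaled counts followed CORO2B most closely, among 13822 genes averaging 1 TPM or more, were FKBP9 (Pearson r = 0.965), STON2 (0.961), ELK3 (0.961), SPECC1 (0.961) and DSE (0.958). For CORO1B, the coronin with the lowest mean difference in the F-test, they were FKBP8 (0.980), MPND (0.968), NUDT22 (0.967), TCIRG1 (0.966) and SIX5 (0.957). The mean log2 arm differences of the first set were 0.36 to 2.77 and those of the second -0.06 to 0.00. The points share their libraries and groups, so these values describe likeness over these samples only.

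The partners of coronins in actin branching and turnover were counted in 4 lists. Of 42 genes, all tested, 16 passed the F-test of the arm differences, 11 higher and 5 lower in the TGFβ1 arm by their mean, where 42.5% of all genes passed, 21.0% higher and 21.5% lower. The count was 26 without the number 2 libraries of 0 and 24 h, where 55.5% of all genes passed, and 35 under reference-gene scaling, where 62.8% did. Over all genes 46.8% passed under library totals and 46.2% in DESeq2, and the list counts below from these fits stand beside those shares.

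In the Arp2/3 complex itself, the branching machine that class I coronins bind, 4 of 10 genes passed, 3 higher and 1 lower, with a median log2 difference of 0.11 against -0.02 over all genes. ARPC1A was higher in the TGFβ1 arm by a mean of 0.26 (SE 0.027, adjusted p = 6.1e-07). ARPC5 was higher by 0.21 (SE 0.028, adjusted p = 2.7e-05). ARPC5L, the alternative form of ARPC5, was lower by 0.13 (SE 0.028, adjusted p = 0.0018). From 0 to 48 h, across library codes, the mean of ARPC1A went down in both arms. It went from 196 to 98.2 TPM in untreated cells and from 207 to 122 TPM in the TGFβ1 arm. At 48 h ARPC1A had 121 to 123 TPM in the TGFβ1 arm against 97.4 to 99.7. This list held 2 calls under library totals and 10 under reference-gene scaling. The count was 7 without the number 2 libraries of 0 and 24 h.

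Of the Arp2/3 activators and their regulatory partners 3 of 16 passed, where 42.5% of all genes did, with a median of -0.04. These were all subunits of the WAVE regulatory complex, but the other WAVE genes in the list, WASF1, WASF2, WASF3, ABI1, ABI2 and BRK1, did not pass. NCKAP1 was higher in the TGFβ1 arm by a mean of 0.27 (SE 0.040, adjusted p = 7.0e-05). CYFIP1 was higher by 0.07 (SE 0.021, adjusted p = 0.0025). By time point CYFIP1 was called at 8 h (0.16) and had -0.03 at 48 h, and its F-test mean was -0.02 with library totals. Its call was kept in 21 of 24 fits without 1 library and was lost without untreated replicate 1 (0.06), TGFβ1 replicate 1 (0.07) or TGFβ1 replicate 2 (0.07) of 8 h. CYFIP2, the paralogue of CYFIP1, was lower in the TGFβ1 arm by 0.78 (SE 0.066, adjusted p = 1.5e-08). At 48 h it had 5.21 to 6.89 TPM in untreated cells and 2.95 to 4.58 TPM in the TGFβ1 arm. From 0 to 48 h, across library codes, its mean went up in both arms. It went from 3.2 to 5.93 TPM in untreated cells and from 2.52 to 3.77 TPM in the TGFβ1 arm. The list held 5 calls in DESeq2, 5 under library totals, 13 under reference-gene scaling, 6 without the 4 libraries that stood apart and 5 without TGFβ1 replicate 1 of 0 h.

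Of the 4 genes that inhibit or debranch Arp2/3 networks 2 passed, where 42.5% of all genes did, with a median of -0.06. ARPIN, the inhibitor at the lamellipodium, was higher in the TGFβ1 arm by a mean of 0.14 (SE 0.027, adjusted p = 6.4e-06). Its differences were -0.11 at 8 h (adjusted p = 0.091), 0.24 at 24 h and 0.30 at 48 h. GMFG, a debranching factor known from blood cells, was lower by 1.10 (SE 0.26, adjusted p = 0.0069) on 2 to 25 estimated counts per library. GMFG was called in 15 of 24 fits without 1 library, and its adjusted p lay between 0.011 and 0.021 where a left-out library ended the call.

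The cofilin cycle had 7 of 12 genes past the F-test, 5 higher and 2 lower, with a median of 0.18. Over all genes 42.5% passed, 21.0% higher and 21.5% lower, with a median of -0.02. In fits without 1 library the list count ran from 6 to 9, and no set test was run. LIMK1, a kinase that inactivates cofilin, was higher in the TGFβ1 arm by a mean of 1.03 (SE 0.054, adjusted p = 7.4e-12). Its untreated TPM was 78.1 to 80.7 at 48 h against 178 to 191 in the TGFβ1 arm. LIMK2 rose by 0.39 (SE 0.036, adjusted p = 6.2e-08). DSTN, the cofilin relative destrin, was lower in the TGFβ1 arm by 0.27 (SE 0.041, adjusted p = 2.2e-05). At 48 h it had 467 to 485 TPM in untreated cells and 363 to 381 TPM in the TGFβ1 arm. SSH1, a slingshot phosphatase that reactivates cofilin, passed with a mean of -0.04 (SE 0.027, adjusted p = 0.0083) with 0.08 at 8 h and -0.19 at 48 h (adjusted p = 0.0024). The SSH1 call of the F-test was kept in only 7 of 24 fits without 1 library. Reference-gene scaling moved the median of all genes in the F-test to 0.265, and there the means were 0.24 for SSH1, 0.01 for DSTN and 0.16 for ARPC5L.

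**Figure D4:**
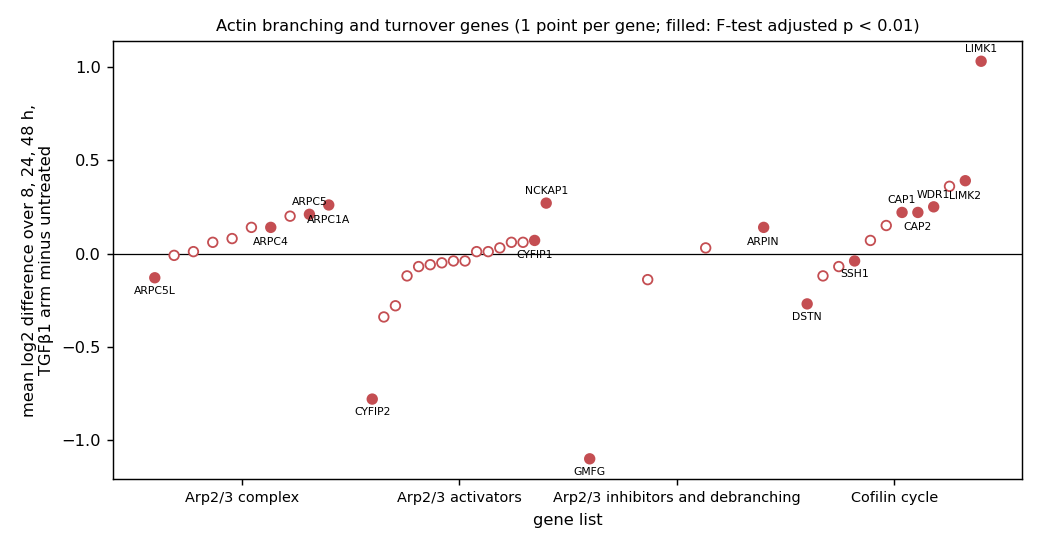
Mean log2 difference over 8, 24 and 48 h (TGFβ1 arm minus untreated, vertical axis) for each gene of the 4 actin lists (horizontal axis), 1 point per gene, ordered by value within a list; filled and named points passed the F-test. LIMK1 (1.03) lies highest and GMFG (-1.10) lowest, and most points lie close to 0.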

How the data were processed

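RNA-Seq was made from SK-MES1 cells in 24 libraries. The authors pseudoaligned the reads with kallisto 0.43.0 to Ensembl 79 transcripts of GRCh38 and deposited, per library and transcript, estimated counts (46613589 to 77964234 in total), TPM and effective lengths, the last a length in bases. Replicates were not pooled, and their counts differed by more than sampling noise. Transcripts were assigned to genes with GENCODE 44 (same build): 155518 of 173259 matched, with 94.82 to 95.18% of counts, and the rest were not used here. Estimated counts were added up per gene, then rounded. Genes with at least 10 counts in at least 3 libraries (17453) were tested with limma voom (limma 3.58.1, R 4.3.3), TMM scaling, 1 mean per group over all libraries and Benjamini-Hochberg adjustment over all genes. The threshold was an adjusted p under 0.01. All adjusted p-values not credited to another tool come from this fit. The permutation test used log2(TPM + 0.1) and scipy 1.17.1.

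Alternatives were edgeR 4.0.16 quasi-likelihood, DESeq2 1.42.0, limma-trend on log2(TPM + 1) or log2(TPM + 0.1), length-scaled counts, library totals, 4 reference genes as library size, no filter, a replicate block, only the libraries of the time points compared, CORO7 summed with CORO7-PAM16, and each library left out. A block per time point and leaving out the number 2 libraries of 0 and 24 h were chosen after seeing the data. Scripts were tested on simulated data.

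Named were the 7 members, CORO7-PAM16 and PAM16, up to 2 genes with the largest rise and up to 2 with the largest fall past the F-test in each actin list, the 5 genes most like the coronins with the largest rise and fall, transcripts with at least 10% of their gene, and TGFβ targets, of which 3 are given and another is not reported here. Rise and fall here mean a positive and a negative mean arm difference in the F-test. The members and lists were chosen with earlier results of these data known.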

Additional observations from a re-analysis of the deposited data

Results flagged for a closer look

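The arm difference of CORO2B differed between time points by a test of the change itself (limma voom). From 8 to 24 h it grew by 1.55 on the log2 scale (SE 0.26, adjusted p = 0.00025), a step over which the library codes also change. From 24 to 48 h, within library codes, it grew by 1.03 (SE 0.26, adjusted p = 0.0093). The call of this later step was kept in only 8 of 24 fits without 1 library and in 7 of 12 other settings, with adjusted p up to 0.039.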

How the results depend on the processing

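CORO2B at 24 and 48 h kept its direction and call in every alternative run, at 2.19 to 2.34 and 3.22 to 3.42 over fits without 1 library. Its 8 h value ran from 0.58 to 1.01 over those fits, and it was not called at 0.52 and 0.67 in limma-trend (pseudocounts 1 and 0.1) or at 0.74 with only the 8 h libraries; the last setting called CORO7 at 8 h (0.22). Coronins called at 8 h numbered 0 in both limma-trend fits, 1 with library totals, 1 with reference genes and 1 to 2 without 1 library, where 12.3, 12.1, 19.2 and 13.3% of all genes were called in the first 4 of these fits. In the F-test they numbered 1 in both limma-trend fits (36.6 and 35.9% of all genes), 7 with reference genes (62.8%), 4 with a block per time point (56.4%), 3 without the number 2 libraries (55.5%) and 1 to 2 without 1 library (6756 to 8127 genes). At 24 h they numbered 6 with reference genes (56.4%), 2 with a block per time point (40.2%) and 2 without the number 2 libraries (34.3%), and at 48 h 5 with reference genes (47.6%). CORO1C at 8 h lost its call at 0.10 and 0.10 (limma-trend), 0.07 (library totals) and 0.20 (reference genes), and its F-test mean was -0.03, -0.03 and -0.05 in limma-trend and library totals. Reference-gene scaling raised the all-gene medians to 0.039, 0.429 and 0.339 at 8, 24 and 48 h. At 24 and 48 h it gave 0.87 and 0.63 for CORO1A, 0.15 and 0.43 for CORO1B, 0.43 and 0.34 for CORO1C, 0.42 and 0.28 for CORO2A, 0.60 and 0.62 for CORO6, and 0.66 and 0.31 for CORO7. Under it F-test means turned to 0.23 for CORO1B, 0.25 for CORO2A, 0.16 for ARPC5L, 0.01 for DSTN and 0.24 for SSH1, and the changes of the arm difference from 8 to 24 h to 0.03 for CORO1B, 0.23 for CORO1C and 0.36 for CORO2A. It turned the 24 to 48 h changes in untreated cells to 0.48 for CORO1A, 0.22 for CORO1B, 0.42 for CORO1C and 0.16 for CORO2B, those of the TGFβ1 arm to 0.24 for CORO1A and 0.32 for CORO1C, and the untreated 0 to 8 h change of CORO1B to -0.04. Library totals gave -0.08 for CORO2A at 8 h and -0.02 for CYFIP1 in the F-test. In limma-trend (pseudocounts 1 and 0.1) and with length-scaled counts CORO1A was -0.15, -0.20 and -0.16 at 0 h, -0.17, -0.27 and -0.24 at 48 h, and 0.31, 0.53 and 0.52 from 24 to 48 h in untreated cells; CORO7 at 0 h was -0.14 with pseudocount 0.1. CORO1B at 24 h was called at -0.29 with a block per time point and -0.20 without the number 2 libraries, which also gave -0.11 for its TGFβ1 change from 24 to 48 h. Without 1 library the CORO1B difference at 0 h ran from -0.16 to 0.15, its TGFβ1 change from 24 to 48 h from -0.11 to 0.19 and the untreated 0 to 8 h change of CORO2B from -0.12 to 0.31. Actin list genes past the F-test numbered 35 with reference genes and 26 without the number 2 libraries. The cause of these shifts was not tested.

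Over all genes 2859, 5112 and 5686 passed at 8, 24 and 48 h; at 8 h this was 5304 with only the 8 h libraries, 4785 without the number 2 libraries and 4604 with a block per time point, and at 24 h 2769 with only the 24 h libraries and 9841 with reference genes. Of these calls 55.7, 52.7 and 49.5% were higher, 33.9, 34.2 and 35.6% with library totals and 73.8, 94.0 and 87.8% with reference genes. Replicate numbers were not taken to pair the arms, since 4 of 12 same-numbered pairs had deviations correlated above 0.1 (range -0.06 to 0.248) and 6 of 12 untreated libraries correlated best with their own number. By time, these were 4 of 6 pairs (0.0637 to 0.248) and 5 of 6 libraries at 0 and 24 h, and 0 of 6 pairs (-0.06 to 0.0943) and 1 of 6 libraries at 8 and 48 h. With a replicate block CORO2B was 0.72, 2.28 and 3.31, and 3244, 5633 and 6189 genes passed. Depth limits CORO1A (36 to 122 counts) and CORO6 (29 to 108 counts).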
